A study of Homo sapiens with 6 samples.

Results

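The genes described here handle iron or guard lipids against peroxidation. They are TFRC, SLC39A14, SLC11A2, SLC40A1, FTH1, FTL, NCOA4, IREB2, GPX4 and AIFM2, chosen by name, and all 10 were found among the 58735 genes of the count table. RNA had been sequenced from MDA-MB-231 cells, a human triple-negative breast cancer (TNBC) line, labelled as wild-type parent cells (3 libraries), and from Adriamycin-resistant (ADRr) cells derived from them (3 libraries). Adriamycin (ADR) is doxorubicin, an anthracycline. According to the study's methods, ADRr cells survived rising doses of ADR and were grown out of single cells by limiting dilution, so that a trait of the clone and a trait of resistance cannot be told apart. In bulk RNA, fewer cells of a type and less RNA per cell cannot be told apart either. The sources used here do not say whether ADR was present at harvest, and the series record mentions 3 time points that no sample label names, and each group's 3 libraries were taken as replicates. Nothing says that they came from separate cultures, and p-values measure the spread between these libraries, which may be technical.

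Iron enters most cells bound to transferrin through the transferrin receptor or as free iron through metal carriers, is stored in a shell of ferritin heavy and light chains, and leaves through ferroportin. Iron-regulatory proteins bind a stem-loop in the messenger RNA, the iron-responsive element (IRE), when iron is scarce. In the 5′ untranslated region (UTR) an IRE blocks translation, as in ferritin and ferroportin, and in the 3′ UTR it stabilises the message, as in the transferrin receptor. Ferroptosis is a form of cell death in which iron drives the peroxidation of membrane phospholipids, and GPX4 and AIFM2 stop it by separate routes. Anthracyclines chelate iron and form radicals with it. The comparison of ADRr with parent cells asks which of these genes differ in RNA level once cells have become resistant.

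The IREs are shown because they are the sites at which iron-regulatory proteins act on members of this group. Annotated UTRs of GENCODE 29 (GRCh38) were searched on the transcribed strand for a C, 5 bases, the loop CAGTGN and 5 bases that pair with the first 5 (G with T allowed). Of the 10 members, 3 held this pattern in the 5′ UTR and 1 in the 3′ UTR. It was found in 0.166% of the 18697 genes with an annotated 5′ UTR and in 0.673% of the 19010 genes with an annotated 3′ UTR. Capitals mark the 6 bases of the loop, and each element is written 5′ to 3′ as DNA.
FTH1, 5′ UTR, chr11:61967574-61967602, minus strand: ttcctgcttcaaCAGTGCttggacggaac
FTL, 5′ UTR, chr19:48965335-48965363, plus strand: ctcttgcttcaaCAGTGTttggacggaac
SLC40A1, 5′ UTR, chr2:189580661-189580689, minus strand: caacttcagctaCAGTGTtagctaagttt
TFRC, 3′ UTR, chr3:196050979-196051007, minus strand: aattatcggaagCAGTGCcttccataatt
TFRC, 3′ UTR, chr3:196050575-196050603, minus strand: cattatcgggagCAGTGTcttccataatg
TFRC, 3′ UTR, chr3:196050510-196050538, minus strand: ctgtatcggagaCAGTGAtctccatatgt
TFRC, 3′ UTR, chr3:196050463-196050491, minus strand: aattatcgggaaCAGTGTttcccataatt
The elements of FTH1 and FTL were identical at 26 of 29 bases, and those of FTH1 and SLC40A1 at 13. The 4 elements of TFRC that matched this pattern lay within 545 bases of its 3′ UTR and were identical to each other at 18 to 25 bases. An element that departs from the pattern would have been missed, so 4 need not be their full number. The other 6 members had no match in their annotated UTRs, which says only that these letters, with this pairing, are not there. SLC11A2 is known to carry an IRE in one of its alternative 3′ ends, which this strict pattern did not match, and its counts sum over transcripts with and without that end.

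The total counts per library ranged from 15983985 to 18272314, and 3 counts, the limit that a count of 0 allows, correspond to 0.164 to 0.188 CPM (counts scaled to a common library size with edgeR's TMM factors), which covers counting error only. The markers VIM, CD44, EGFR and AXL had group means of 349 to 1679 CPM. In ADRr cells VIM (log2 fold change -0.56) and AXL (-0.62) were called lower, and CD44 (0.80) and EGFR (1.39) higher. The hormone receptor genes ESR1 and PGR were at or near 0. ERBB2 (HER2), the receptor that with these defines other subtypes, had 120.2 CPM in parent and 50.8 CPM in ADRr cells and was called lower (log2 fold change -1.25). The 7 leukocyte and macrophage markers summed to at most 0.667 CPM and the 4 erythroid markers to at most 0.0632 CPM in any library, with TYROBP, AIF1, HBA2 and HBB among those at 0 throughout. These are cell types rich in ferritin or in iron traffic. Of the 15242 genes that passed the filter on low counts and were tested, 29.2% were called higher in ADRr cells and 29.6% lower, 58.8% in all. A call required both an adjusted p no higher than 0.05 (edgeR's quasi-likelihood test, Benjamini-Hochberg over all tested genes) and a fold change of 1.2 or more, which is 0.263 on the log2 scale. All 10 members were tested. Of these, 5 were called higher (SLC39A14, FTH1, FTL, NCOA4 and AIFM2), 2 lower (SLC40A1 and IREB2), and 3 were not called (TFRC, SLC11A2 and GPX4). Every ADRr library lay above every parent library for 5 members, where this held for 34.5% of all tested genes, and below for 3, against 34.7%, so that the groups did not overlap for 8 members and for 69.2% of all tested genes. By the adjusted p alone 8 members passed, beside 66% of all tested genes. None reached an absolute log2 fold change of 1.2, which 13.8% of tested genes did with the same adjusted p. The median log2 fold change of the members was 0.16, and that of all tested genes -0.01. The share of members called was thus near the share of all genes, and what follows describes which of them moved and how far.

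**Figure D1:**
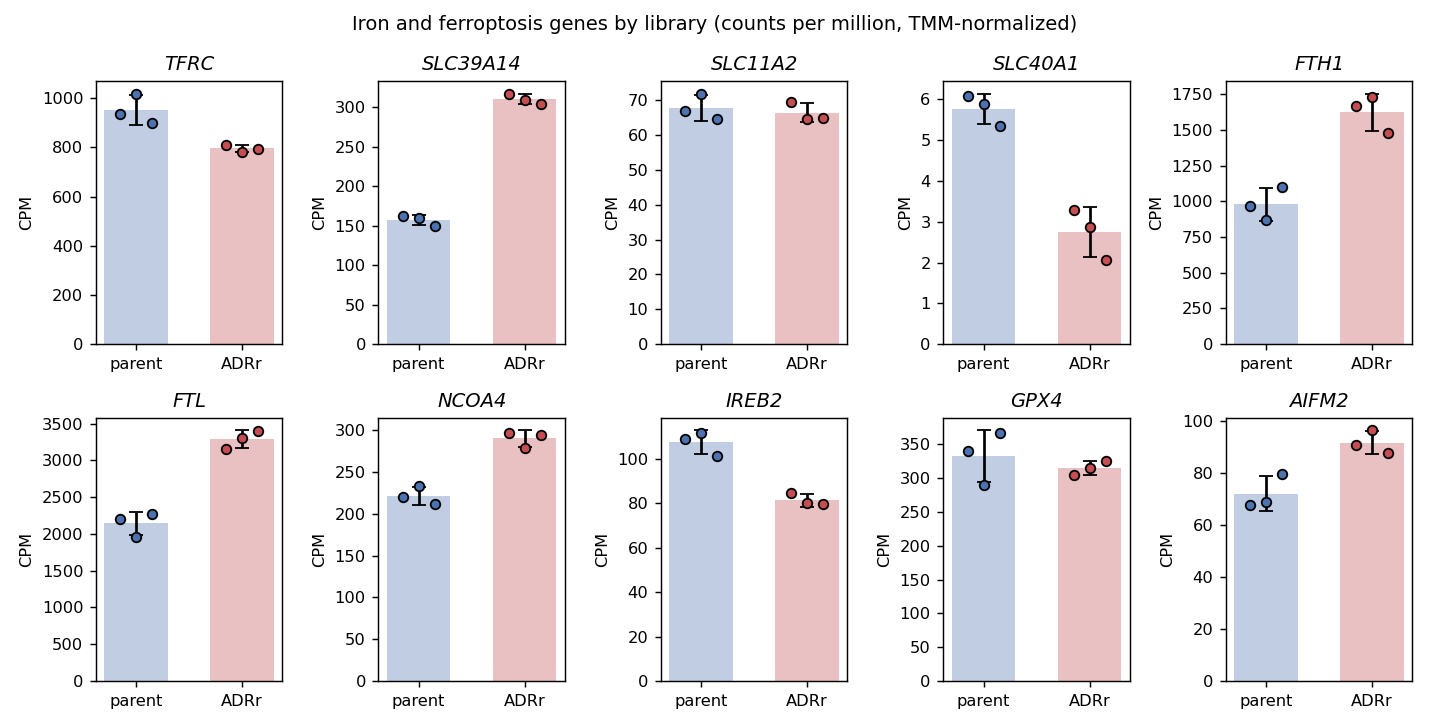
CPM (TMM-normalized, vertical axes starting at 0) of the 10 members in each library of parent and ADRr cells; bars are group means, error bars 1 SD (n = 3) and points single libraries. The groups do not overlap for SLC39A14, FTH1, FTL, NCOA4 and AIFM2, which are higher in ADRr cells, and for SLC40A1, IREB2 and TFRC, where every ADRr library is lower.

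Both ferritin chains rose in ADRr cells. FTL, the light chain that promotes mineral formation inside the shell (ENSG00000087086, chromosome 19, 48965301 to 48966878, plus strand), had 2198, 1961 and 2266 CPM in parent replicates 1 to 3 and 3153, 3306 and 3397 CPM in ADRr replicates 1 to 3. The lowest ADRr library lay above the highest parent library. The log2 fold change of FTL was 0.62 (standard error 0.050, adjusted p = 2.2e-10), a 1.53-fold increase. FTH1, the heavy chain that oxidises ferrous iron (ENSG00000167996, chromosome 11, 61959718 to 61967660, minus strand), had 968, 871 and 1099 CPM in parent cells and 1665, 1728 and 1479 CPM in ADRr cells. Again the groups did not overlap, with ADRr replicate 3 the lowest of its group and parent replicate 3 the highest of its own. The log2 fold change of FTH1 was 0.73 (standard error 0.066, adjusted p = 1.5e-09), a 1.66-fold increase. Together the pair held 0.280 to 0.332% of all counts in parent libraries and 0.487 to 0.508% in ADRr libraries.

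Ferritin genes have many processed pseudogenes, and reads could be split between near-identical copies. The table lists 25 pseudogenes of FTH1, 12 of them with counts, and 16 of FTL, 4 of them with counts. They held 0.876 to 1.24% of the counts of FTH1 and its pseudogenes, and 0.0451 to 0.0847% of those of FTL and its own. Of the 5 that were tested, FTH1P8 was called higher (log2 fold change 0.66, adjusted p = 0.022) and none lower. BEST1, which overlaps FTH1 on the opposite strand, had 13 to 33 counts per library, where FTH1 had at least 13782.

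NCOA4, the cargo receptor that delivers ferritin to the lysosome and so releases its iron (ENSG00000266412, chromosome 10, 46005088 to 46030714, minus strand), had 219, 233 and 211 CPM in parent cells and 297, 279 and 295 CPM in ADRr cells. All ADRr libraries were higher. NCOA4 rose by 0.39 on the log2 scale (standard error 0.052, adjusted p = 7.2e-07), smaller than those of both ferritin chains in the same fit.

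Among the importers the largest change was that of SLC39A14 (ZIP14), a carrier of zinc, manganese and iron not bound to transferrin (ENSG00000104635, chromosome 8, 22367249 to 22434129, plus strand). It had 162, 160 and 150 CPM in parent replicates 1 to 3 and 318, 309 and 305 CPM in ADRr replicates 1 to 3. The spread within each group was small beside the gap between them, 6.45 CPM (SD) in parent and 6.58 CPM in ADRr cells. SLC39A14 rose by 0.98 on the log2 scale (standard error 0.051, adjusted p = 1.1e-13), a 1.98-fold increase and the largest of any member in either direction except that of SLC40A1.

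TFRC, the transferrin receptor (ENSG00000072274, chromosome 3, 196027183 to 196082189, minus strand), had 936, 1018 and 897 CPM in parent cells and 811, 781 and 795 CPM in ADRr cells. Every ADRr library lay below every parent library. The log2 fold change of TFRC was -0.26 (standard error 0.049, adjusted p = 7.6e-05), a 1.19-fold difference that passed the adjusted p but not the fold change threshold, so TFRC fell short of a call. Leaving out parent replicate 1 (-0.27) or parent replicate 3 (-0.30) took it past the threshold, and leaving out parent replicate 2 moved it furthest the other way (-0.21). TFRC is known to be more abundant in dividing cells, and the 6 proliferation genes MKI67, PCNA, MCM2, TOP2A, CCNB1 and CDK1 were all called lower, with a median log2 fold change of -1.18. Their part in the level of TFRC was not tested.

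SLC11A2 (DMT1), which moves ferrous iron out of endosomes (ENSG00000110911, chromosome 12, 50979401 to 51028566, minus strand), had 66.9, 71.9 and 64.7 CPM in parent cells and 69.6, 64.7 and 64.8 CPM in ADRr cells. The groups overlapped. Its log2 fold change of -0.03 had a 95% confidence interval of -0.17 to 0.11, which lies within the fold change threshold on both sides.

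SLC40A1 encodes ferroportin, the iron exporter (ENSG00000138449, chromosome 2, 189560579 to 189583758, minus strand). It was the least abundant member, with 101, 93 and 94 counts in parent replicates 1 to 3 and 59, 47 and 38 counts in ADRr replicates 1 to 3, or 5.35 to 6.07 CPM against 2.07 to 3.28 CPM. The groups did not overlap. SLC40A1 fell 2.10-fold. Its fitted difference was -1.07 on the log2 scale (standard error 0.20, 95% confidence interval -1.50 to -0.65, adjusted p = 7.8e-05). The interval is the widest among the members, at counts this low. On the scale of log2(FPKM + 1), which understates changes of low genes, the difference was as small as -0.51 and still called. It lay between -1.22 (without ADRr replicate 1) and -0.90 when each library was left out in turn.

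IREB2 encodes iron-regulatory protein 2, which binds IREs and is degraded when iron is plentiful (ENSG00000136381, chromosome 15, 78437431 to 78501456, plus strand). It had 109, 112 and 101 CPM in parent cells and 84.7, 80.0 and 79.5 CPM in ADRr cells, with no overlap. IREB2 fell by 0.40 on the log2 scale (standard error 0.060, adjusted p = 3.9e-06). Its RNA level says nothing of the protein, which is controlled by degradation. The 50 nearest tested genes on chromosome 15, 25 on each side, had a median log2 fold change of -0.59, and 33 of them were called lower and 1 higher. Of these neighbours 32 had a log2 fold change at or below that of IREB2, so the lower level of IREB2 was shared by the genes around it.

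**Figure D2:**
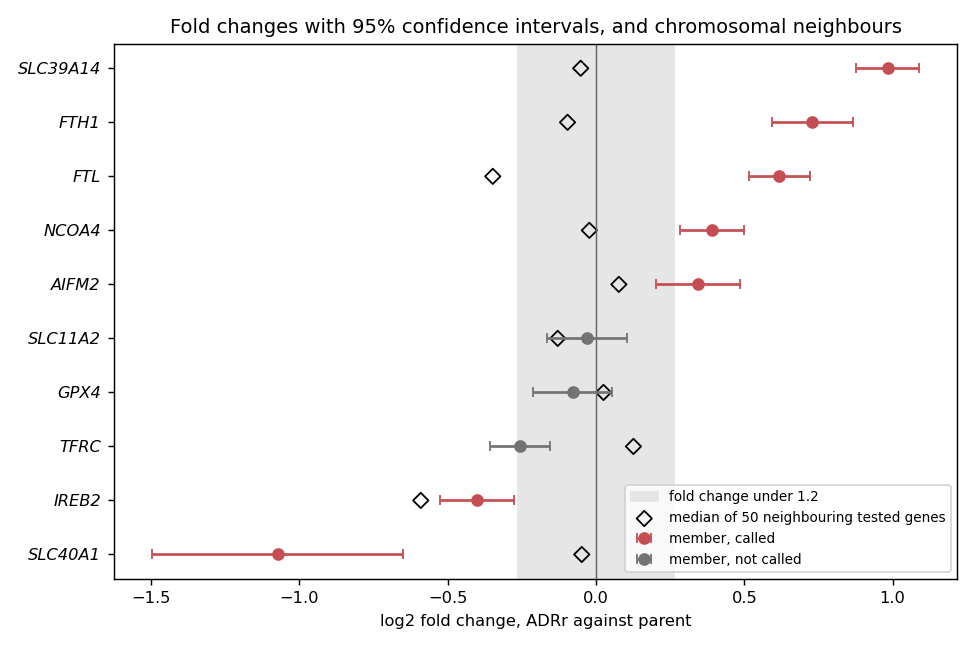
Log2 fold change (ADRr against parent, horizontal axis) of each member with its 95% confidence interval, red where called and grey where not; open diamonds are the median log2 fold change of the 50 nearest tested genes on the same chromosome and the grey band marks fold changes under 1.2. The neighbours of IREB2 lie at -0.59, below IREB2 itself, while those of SLC39A14, FTH1 and SLC40A1 lie within 0.1 of 0 on the log2 scale and far from these members.

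For the other members that were called, the neighbour median was -0.05 at SLC39A14, -0.10 at FTH1, -0.35 at FTL, -0.02 at NCOA4, 0.08 at AIFM2 and -0.05 at SLC40A1. Of 50 neighbours, 8 had a log2 fold change at or above that of SLC39A14, 6 at or above that of FTH1 and 7 at or above that of FTL. For the smaller changes of NCOA4 and AIFM2 the numbers were 18 and 16 of 50. At FTL 24 neighbours were called lower and 11 higher, so that FTL stood 0.97 above its neighbour median on the log2 scale. At SLC40A1, 4 neighbours had a log2 fold change at or below its own. The genes around TFRC had a median of 0.13, with 21 called higher and 12 lower. These medians moved when only 10 genes on each side were taken, at IREB2 to -0.69 and at TFRC to 0.34. At AIFM2 the median of this narrower window was 0.30, close to the 0.34 of AIFM2 itself, and 9 of its 20 neighbours had a log2 fold change at or above that of AIFM2. At SLC40A1 the sign turned, to 0.17.

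Of the guards against lipid peroxidation AIFM2 rose, and GPX4 was not called. GPX4, the selenoenzyme that reduces phospholipid hydroperoxides with glutathione (ENSG00000167468, chromosome 19, 1103926 to 1106791, plus strand), had 339, 291 and 367 CPM in parent cells and 304, 315 and 325 CPM in ADRr cells. The parent libraries bracketed all ADRr libraries. The fitted difference for GPX4 was -0.08 on the log2 scale (standard error 0.064, adjusted p = 0.28), with a 95% confidence interval of -0.21 to 0.05 that lies within the fold change threshold. Without parent replicate 2, its lowest library, the log2 fold change of GPX4 was -0.17 (adjusted p = 0.0021), and without parent replicate 3, its highest, it was -0.01 (adjusted p = 0.94). AIFM2, known as FSP1, regenerates reduced coenzyme Q at the plasma membrane as a radical trap (ENSG00000042286, chromosome 10, 70098223 to 70132934, minus strand). It had 67.4, 68.8 and 79.7 CPM in parent cells and 90.7, 96.3 and 87.5 CPM in ADRr cells. AIFM2 rose by 0.34 on the log2 scale (standard error 0.068, adjusted p = 1.3e-04), a 1.27-fold increase with no overlap between groups. With edgeR's glmTreat, which tests against the fold change of 1.2 itself, AIFM2 was not called (adjusted p = 0.079). H2AFY2, which overlaps AIFM2 on the opposite strand, had 1 to 12 counts per library.

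Levels were compared between members in FPKM, which divides counts by gene length and depth. In both groups the order was FTL, FTH1, GPX4, TFRC, NCOA4, SLC39A14, AIFM2, IREB2, SLC11A2 and SLC40A1, and the ranges of neighbours in this order did not overlap in either group. FTL averaged 2388 ± 178 FPKM in parent and 3675 ± 141 FPKM in ADRr cells (SD, n = 3 libraries each) and ranked 8th of 58735 genes by its mean over all libraries. FTH1 averaged 472 ± 54.6 and 786 ± 60.6 FPKM and ranked 27th. At the other end SLC40A1 averaged 1.30 ± 0.0880 and 0.622 ± 0.138 FPKM, well below TFRC at 118 ± 7.71 and 99.1 ± 1.98 FPKM. The step from NCOA4 to SLC39A14 narrowed, from 53.1 against 22.2 FPKM in parent cells to 69.9 against 43.9 FPKM in ADRr cells.

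Ratios within a library do not depend on how libraries are scaled. The ratio of TFRC to FTH1, in counts per kilobase of gene length, was 0.249, 0.301 and 0.210 in parent replicates 1 to 3 and 0.125, 0.116 and 0.138 in ADRr replicates 1 to 3. Relative to ferritin heavy chain, transferrin receptor RNA was thus 1.98-fold less abundant in ADRr cells, a difference of -0.99 in the log2 ratio, with no overlap. The ratio of GPX4 to AIFM2 was 12.8, 10.7 and 11.7 in parent cells and 8.53, 8.31 and 9.45 in ADRr cells, a difference of -0.42. For both ratios the exact permutation test (two-sided) gave p = 0.1, the smallest that 3 libraries against 3 allow, and an adjusted p of 0.15 over the 3 ratios. The ratio of FTH1 to FTL was 0.191, 0.192 and 0.210 in parent and 0.228, 0.226 and 0.188 in ADRr cells, and the groups overlapped (difference 0.11 on the log2 scale, exact permutation p = 0.4, adjusted p = 0.4).

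**Figure D3:**
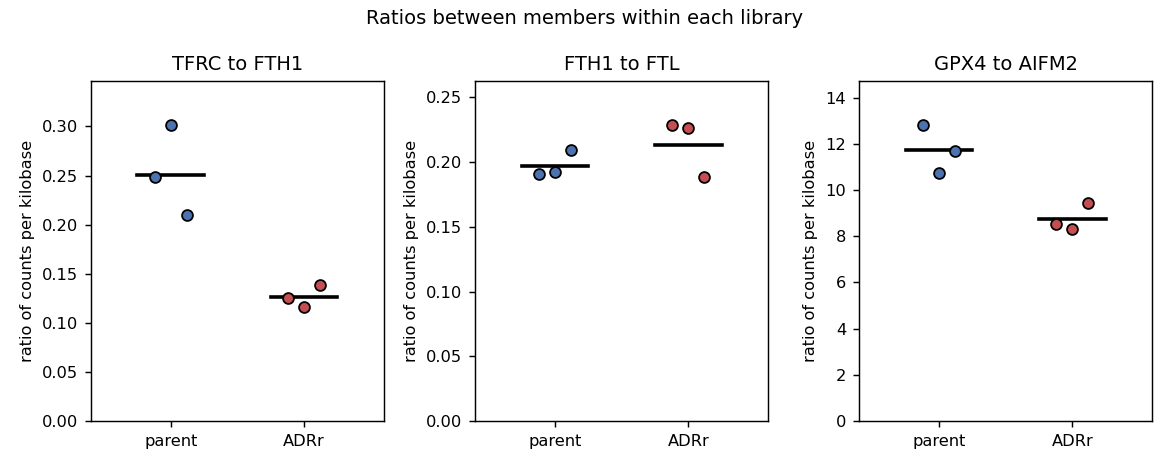
Ratio of counts per kilobase of gene length (vertical axes starting at 0) between 2 members in each library; points are libraries and bars geometric means. The ratio of TFRC to FTH1 is 0.210 to 0.301 in parent and 0.116 to 0.138 in ADRr libraries, the ratio of GPX4 to AIFM2 is lower in every ADRr library, and the ratio of FTH1 to FTL overlaps between groups.

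Within the parent group some members deviated together. Parent replicate 2 had the lowest level of FTH1, FTL and GPX4 and the highest of TFRC, IREB2, SLC11A2 and NCOA4, and parent replicate 3 the reverse for each of these 7 genes. This was not particular to the members. KRT8 and ERBB2 were also lowest in parent replicate 2 and highest in parent replicate 3, and CD44 and EGFR the reverse. Across all tested genes these 2 libraries had the lowest correlation of log2 CPM within a group (0.9885). The share of all genes that split in this way was not counted. The log2 fold change of FTH1 was 0.65 without parent replicate 2 and 0.82 without parent replicate 3, and that of FTL 0.55 and 0.66. Both chains stayed called in each of these fits.

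Other genes of the pathways were taken from 9 lists, of which 122 genes were tested, and changes of these genes are given on the log2 scale. Chromosomal neighbours were examined for the members only, so changes that pathway genes share with the genes around them were not tested. Of the 122 tested genes 43 were called higher (35.2%) and 41 lower (33.6%), with a median log2 fold change of 0.06. Over all tested genes of the data these shares were 29.2% and 29.6%. In the iron uptake list 2 of 10 tested genes were called higher and 6 lower (median -0.76). Genes of this list need not all act in the same direction, so the count gives no net direction for uptake. The 6 include TFR2, which had only 25, 27 and 31 counts in parent cells and 18, 8 and 21 counts in ADRr cells. STEAP1, of a family of metalloreductases, rose by 1.36, and LCN2, lipocalin 2, which binds iron-carrying siderophores, rose by 0.85. Other reductases of the list, named after their values had been seen, did not rise with STEAP1. STEAP3 and CYBRD1 were both called lower (-0.76 each), and STEAP2 was not called (0.24). HFE, a partner of the transferrin receptor, changed by -1.51, and LTF, lactoferrin, by -2.31 from only 12, 18 and 17 counts in parent cells to 6, 3 and 1 counts in ADRr cells. Of the storage, chaperoning and export list 3 of 8 genes were tested. PCBP1, an iron chaperone that loads ferritin, rose by 0.71 (adjusted p = 7.4e-11), from 131 ± 4.89 to 214 ± 7.42 CPM. HERC2, a ubiquitin ligase that acts on NCOA4, changed by -0.31. The ferroxidases CP and HEPH, which work with ferroportin, and the mitochondrial ferritin FTMT were too low to test.

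In the iron sensing and regulation list 3 of 10 tested genes were called higher and 5 lower (median -0.27). BACH1, a heme-binding repressor of ferritin and heme oxygenase genes, rose by 1.21, from 51.2 ± 4.71 to 118 ± 0.814 CPM. TMPRSS6, a protease that cleaves hemojuvelin, rose by 1.29 but had only 7 to 13 counts in parent cells. NEO1, neogenin, a receptor that binds hemojuvelin, changed by -2.52 and BMPR2, a BMP receptor, by -0.77. Named for their roles after their values had been seen, ACO1, the other iron-regulatory protein, changed by -0.75, from 318 ± 8.18 to 189 ± 5.93 CPM (adjusted p = 8.1e-12), and NFE2L2 (NRF2), an activator of ferritin genes, rose by 0.71. RNA of both IRE-binding proteins, ACO1 and IREB2, was therefore lower in ADRr cells. For IREB2 (-0.40) the genes around it were lower as well, with a median of -0.59 over its 50 nearest tested genes.

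Among further genes listed for an IRE, EPAS1, the hypoxia factor HIF-2α, rose by 1.94 (adjusted p = 4.9e-19), from 129 ± 4.04 to 496 ± 8.10 CPM. CDC14A, a phosphatase with an IRE in some of its 3′ ends, rose by 1.43. CDC42BPA, a kinase (-0.03, adjusted p = 0.70), was not called.

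In the heme list 8 of 19 tested genes were called higher and 6 lower (median 0.03). ABCG2, an exporter of drugs and porphyrins, rose by 1.58 and BLVRB, biliverdin reductase B, by 1.25. ALAD, which makes porphobilinogen, changed by -1.48 and ABCB6, a porphyrin transporter, by -1.28. HMOX1, heme oxygenase 1, which frees iron from heme, was named after its values had been seen and rose by 1.07, from 17.2 ± 0.840 to 36.2 ± 1.91 CPM. For mitochondrial iron and iron-sulfur clusters, 7 of 23 tested genes were called higher and 9 lower (median 0.05). HSCB, a cochaperone of cluster transfer, rose by 1.37 and the carrier NFU1 by 0.99. NFS1, the cysteine desulfurase that supplies sulfur, changed by -1.11 and FDXR, ferredoxin reductase, by -0.67.

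The list for cystine and glutathione, the cofactor of GPX4, held 8 of 10 tested genes called higher and none lower (median 0.58). Over all tested genes 29.2% were called higher and 29.6% lower. Of the remaining tested genes of the list, GCLC changed by -0.19 (adjusted p = 0.069) and GSR by -0.20 (adjusted p = 0.016), both under the fold change threshold. CTH, which makes cysteine from cystathionine, rose by 2.55, from 15.1 ± 0.821 to 88.7 ± 3.48 CPM (adjusted p = 6.4e-18). CBS (cystathionine beta-synthase) and GLS2, also of this list, were too low to test, and CBS had 0 counts in every library. CHAC1, which breaks glutathione down rather than supplying it, is among the 8 and rose by 1.94. SLC7A11, the cystine importer whose block triggers ferroptosis, was named after its values had been seen and rose by 1.52, from 52.2 ± 6.02 to 149.7 ± 3.95 CPM. Selenoprotein synthesis, on which GPX4 protein depends, held 7 of 10 tested genes called higher and 1 lower (median 0.61). PSTK, which phosphorylates the serine on the selenocysteine transfer RNA, rose by 1.31 and TXNRD1, itself a selenoprotein, by 0.91. LRP8, a receptor for selenoprotein P, changed by -0.41.

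The list of quinone and other lipid radical traps, to which AIFM2 belongs by function, had 1 of 18 tested genes called higher and 9 lower (median -0.26). Over all tested genes 29.2% were called higher and 29.6% lower. The 9 include DHCR7 (-0.57), and genes of the list need not all act in the same direction, so the count gives no net direction for this defence. GCH1, the first enzyme of tetrahydrobiopterin synthesis, rose by 0.86. MBOAT1, a phospholipid acyltransferase, changed by -1.43. Of the drivers of phospholipid peroxidation, 6 of 19 tested genes were called higher and 4 lower (median 0.17). The lipoxygenase family members ALOXE3 and ALOX12B had 130, 117 and 145 and 47, 42 and 33 counts in ADRr replicates 1 to 3, against 3, 3 and 4 and 4, 7 and 4 counts in parent cells. FADS2, a fatty acid desaturase, changed by -1.22 and PEBP1, a partner of lipoxygenases, by -0.95. ACSL4, which loads polyunsaturated fatty acids into phospholipids and was named after its values had been seen, had 232 ± 21.9 and 243 ± 11.6 CPM (log2 fold change 0.07, adjusted p = 0.32).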

How the data were processed

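RNA of 6 libraries was measured by RNA-seq. According to the study's methods and the submitters' processing notes, the authors mapped reads with HISAT2 2.0.5 to GRCh38 and counted them per gene with featureCounts 1.5.0-p3. The deposited tables hold whole-number counts without normalization, and FPKM values that the authors made from them. Strandedness is not given in the sources used here, and the methods and the sample records give different amounts of input RNA. All 58735 identifiers are in GENCODE 29, and the coordinates of all 10 members are the same there. For the tests, edgeR 4.0.16 in R 4.3.3 was run on the counts (filterByExpr, TMM, quasi-likelihood test, Benjamini-Hochberg). Standard errors are the log2 fold change over the square root of F. CPM were scaled with TMM. The scripts were tested on simulated data.

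All members are named in full, and in each pathway list the 2 largest called increases and the 2 largest called decreases provided that the group with the higher level averaged 10 or more normalized counts. A few genes that this rule names are not reported here. Members and lists were chosen with earlier results of these data known. Alternatives were DESeq2 1.42.0, its size factors, library size alone, no filter, a filter of 10 counts per library, protein-coding genes alone, limma 3.58.1 on log2 FPKM (pseudocount 1 or 0.1, mean FPKM of at least 0.5 or no filter), a replicate block, each library left out, other call thresholds, ferritin counts with pseudogenes and 10 neighbours on each side.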

Additional observations from a re-analysis of the deposited data

How the results depend on the processing

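The direction of all 7 called members held in all 19 alternative fits, and SLC11A2 and GPX4 were called in none. When a log2 fold change of 1.2 in size was required, 1119 genes were called higher and 978 lower, among them 14 and 7 genes of the pathway lists and 0 members at either side: SLC39A14 (0.98), FTH1 (0.73), FTL (0.62), NCOA4 (0.39), AIFM2 (0.34), IREB2 (-0.40) and SLC40A1 (-1.07) all lay below it. Without ADRr replicate 1 SLC40A1 was at -1.22, past that size. FTL was not called by limma-trend without a filter on low FPKM (pseudocount 1; 0.62, adjusted p = 0.052; range over its alternatives 4.3e-49 to 0.052), nor AIFM2 by glmTreat (0.34, adjusted p = 0.079; range 2.1e-07 to 0.079), and the cause was not tested. TFRC was called by the adjusted p alone (-0.26), and lay between -0.30 and -0.21 when each library was left out. In those fits the median of the members lay between 0.13 and 0.18. Summing ferritin counts with pseudogenes changed no call. The replicate block gave 4406 genes higher and 4464 lower and the same counts of members, 5 and 2. Same-numbered libraries did not deviate together (correlations across genes of -0.0457 to 0.00735), and not every library correlated best with its own number. With only 3 libraries per group these correlations cannot decide whether same-numbered libraries shared a culture or a preparation.

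With 10 neighbours on each side the neighbour medians were 0.34 at TFRC, -0.19 at FTH1, -0.22 at FTL, -0.16 at SLC39A14, -0.69 at IREB2, -0.17 at NCOA4 and 0.30 at AIFM2, and the sign turned at SLC40A1 (0.17), SLC11A2 (0.012) and GPX4 (-0.011). Depth limits SLC40A1 most, at 38 to 101 counts.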
